A study of Mus musculus with 6 samples.

Results

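The cytosolic ribosomal protein genes, which encode the protein part of the ribosomes that translate nuclear mRNAs in the cytosol, were followed in mouse retina after injection of saline or microbeads into the anterior chamber of the eye. They were chosen by symbol: Rpl or Rps with a number and at most a short suffix, or *Rpsa*, *Rplp0*, *Rplp1* or *Rplp2*, leaving out *Rps27a*, the Rps6k kinases and symbols marked as pseudogene (-ps). Of the 31169 genes counted, 85 had such a symbol, and the 83 with at least 10 counts in 3 or more of the 6 libraries were kept. The 2 left out for low counts were *Rpl39l* and *Rpl3l*, paralogs of *Rpl39* and *Rpl3*. Of the 83 genes, 30 encode proteins of the small (40S) subunit, 46 encode proteins of the large (60S) subunit, and 7 are copies or paralogs.

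Male C57BL/6 mice of 1 month of age were injected, per the labels, with 1 μL of either saline or microbeads of 15 μm diameter, and whole retina was taken 4 weeks later, at 2 months of age. The beads raise intraocular pressure (IOP), and the comparison asked which transcripts differ between saline retina and microbead retina. Each group had 3 libraries of poly(A) RNA, read as counts per gene. Injections were made in both eyes, and the labels do not say whether the 3 retinas of a group came from separate mice, so that p-values measure the spread between these samples only.

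A ribosome is built from ribosomal RNA (rRNA) and ribosomal proteins in fixed proportions, so these genes are usually expressed in a balanced way. Their mRNAs belong to the TOP class: they begin with a run of pyrimidines at the 5′ end, through which the growth-controlling kinase complex mTORC1 and the protein Larp1 govern their translation. In retina, photoreceptors make proteins at a high rate to renew their outer segments. Ganglion cells, the neurons that IOP injures in glaucoma, are a small share of retinal cells. In whole tissue, fewer cells of a type and less RNA per cell cannot be told apart.

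The libraries held 36085737, 46481382 and 37546884 counts in saline retina and 19834366, 13574949 and 15647739 counts in microbead retina, so every microbead library was shallower than every saline library. Levels are given as counts per 1000000 (CPM) of library sizes scaled by the TMM method of edgeR. The 83 genes took between 1.06% and 1.60% of all counts in a library. The share of counts on mitochondrially encoded genes was 3.19, 3.30 and 3.57% in saline retina and 10.6, 8.90 and 9.97% in microbead retina, without overlap. All saline libraries carry names of one series and all microbead libraries names of another, so that name series and treatment cannot be told apart. The 16 rod photoreceptor markers summed to 82171 to 107901 CPM in saline retina and 72542 to 88340 CPM in microbead retina, so that every library carried the rod transcripts of retina. Lens crystallin *Cryaa* stood at 15.5, 0.270 and 210 CPM in saline retina and at 0, 0.144 and 0 CPM in microbead retina, so that saline replicate 3, and less so saline replicate 1, held lens transcripts. The 8 pigment epithelium markers summed to 20.3, 69.6 and 265 CPM in saline retina and to 152, 126 and 143 CPM in microbead retina.

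Most ribosomal protein genes did not differ between saline and microbead retina past the threshold. In edgeR's quasi-likelihood test across all 17707 genes that passed the filter on low counts, with all 83 ribosomal protein genes among them, 2 rose and 9 fell in microbead retina at an adjusted p-value under 0.05. That is 13.3% of the 83 genes, beside 12.8% of all genes tested, and this share is near the background. The 2 higher genes are 2.41% of the 83, beside 6.46% of all genes, and the 9 lower genes are 10.8%, beside 6.31% of all genes. The median log2 fold change of the 83 genes was -0.23 (interquartile range 0.74), against -0.03 (interquartile range 0.87) over all genes tested. The median stayed below 0 under the other scalings of the libraries, between -0.24 and -0.19, and at -0.11 with the summed members as library size. DESeq2 called 5 of the 83 genes higher and 19 lower, with 3582 of all genes called in either direction. In limma-voom 2 of the 83 were higher and 10 lower, with 2210 of all genes called. The fold change was above 0 for 29 of the 83 genes and below 0 for 54. The 3 values of a group lay wholly above or below those of the other for 31 of the 83 genes, or 37.3%, beside 37.8% of all genes. Of these 31 genes, 7 were higher in microbead retina, which is 8.43% beside 18.8% of all genes, and 24 were lower, which is 28.9% beside 18.9% of all genes.

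**Figure D1:**
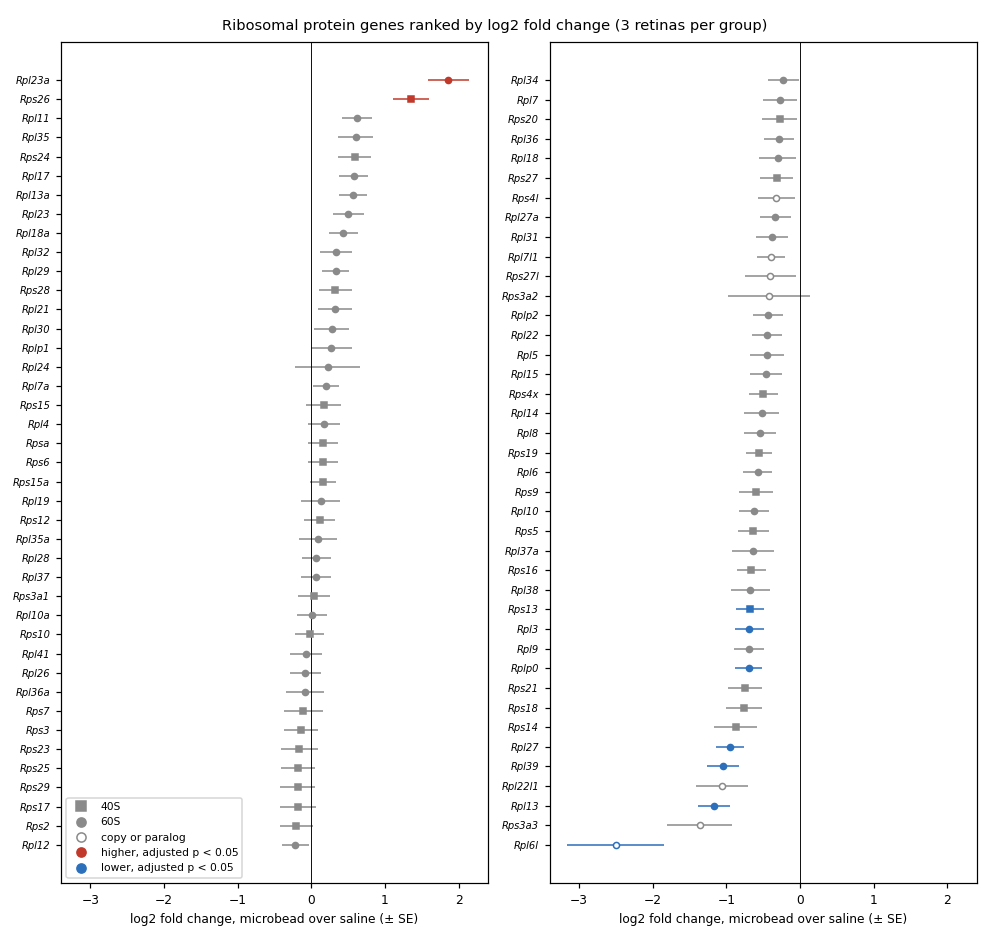
Log2 fold change of 81 of the 83 ribosomal protein genes, microbead over saline retina, with bars for the standard error (3 libraries per group). Squares are 40S genes, filled circles 60S genes and open circles copies or paralogs, and colour marks an adjusted p-value under 0.05; *Rpl23a* at 1.86 and *Rps26* at 1.35 stand to the right of all others, and *Rpl6l* at -2.50 to the left.

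These counts of calls rested on single libraries. Without microbead replicate 3, edgeR called 0 of the 83 genes (25 at an unadjusted p under 0.05) and 46 of all genes, and without saline replicate 2 it called only *Rpl23a* (27 at an unadjusted p under 0.05) and 293 of all genes. Without microbead replicate 2, *Rpl23a*, *Rps26* and *Rpl13* remained of the 11, and without saline replicate 3, *Rpl27* and *Rpl39* were among the 6 that remained. Without saline replicate 1, *Rplp0* and *Rps13* were lost and the other 9 genes remained. Without microbead replicate 1, only *Rplp0* was lost, and 2 genes were higher and 17 lower in all.

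The summed level of the 83 genes overlapped between the groups. It was 13350, 12151 and 15627 CPM in saline retina (mean 13709 ± 1765, SD, n = 3) and 16343, 10408 and 11011 CPM in microbead retina (mean 12588 ± 3267, SD, n = 3). Microbead replicate 1 was above all saline libraries and the other microbead libraries were below them. The log2 ratio of the means was -0.12, and without microbead replicate 1 it was -0.36.

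The genes moved together from library to library within a group. Microbead replicate 1 was the highest of its group for 80 of the 83 genes, saline replicate 3 was the highest of its group for 77, and saline replicate 2 was the lowest of its group for 78. The lens marker *Cryaa* and the summed pigment epithelium markers were also highest in saline replicate 3. Within microbead retina that sum was highest in replicate 1, at 152 CPM beside 126 and 143 CPM, though of its 8 markers only *Best1*, *Rpe65* and *Ttr* were each highest there, and *Cryaa* was at 0. The summed rod markers were at 85009, 82171 and 107901 CPM in saline retina and at 88340, 72542 and 87899 CPM in microbead retina. In both groups they ranked the libraries as the summed level of the 83 genes did. The summed Müller glia markers were also highest in saline replicate 3 and in microbead replicate 1. The part of any of these markers in the level of the ribosomal protein genes was not tested.

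**Figure D2:**
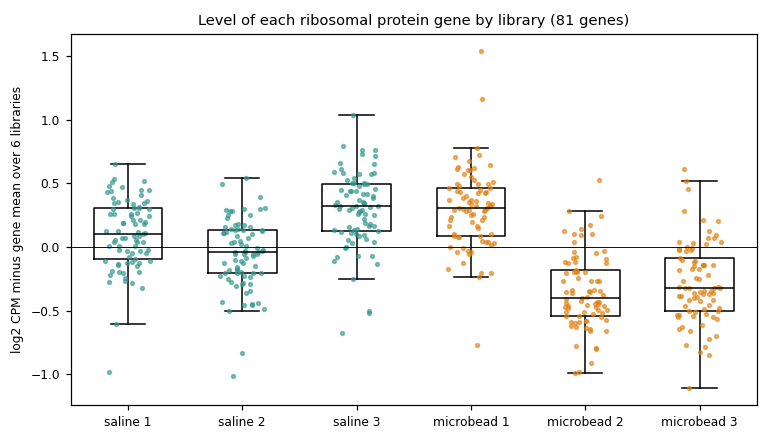
Log2 CPM of each ribosomal protein gene in each library less that gene's mean over the 6 libraries, for 81 genes, leaving out *Rpl6l* and *Rps3a2* with fewer than 10 counts in some library. Boxes span the quartiles with the median as a line and whiskers reach to at most 1.5 box lengths; saline replicate 3 and microbead replicate 1 lie above the other libraries of their group.

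Among genes of the small subunit, 1 of 30 rose (3.33%, beside 6.46% of all genes) and 3 fell (10%, beside 6.31%). Their median log2 fold change was -0.19. *Rps26*, whose protein lies at the channel where mRNA leaves the ribosome, was at 78.6, 67.0 and 83.5 CPM in saline retina (mean 76.4 ± 8.46, SD, n = 3) and at 268, 146 and 171 CPM in microbead retina (mean 195 ± 64.5, SD, n = 3). Every microbead value was above every saline value. Its log2 fold change was 1.35 (SE 0.24), with an adjusted p of 0.0149 from edgeR. The adjusted p was 0.0584 without saline replicate 2 and 0.0700 without microbead replicate 3, and the fold change stayed between 1.05 and 1.54 with any 1 library left out. *Rps26* lies on the minus strand of chromosome 10 from 128624534 to 128626747 (GRCm38, GENCODE vM21), and 9.70% of the 100-base stretches of its transcripts also occur in transcripts of another locus.

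The 3 small-subunit genes that fell encode proteins of the body and platform of the subunit. *Rps13* was at 106, 91.3 and 113 CPM in saline retina and at 80.2, 57.4 and 55.8 CPM in microbead retina. The groups did not overlap, and in microbead retina replicate 1 was nearest to saline retina. Its log2 fold change was -0.68 (SE 0.19, adjusted p = 0.0491 from edgeR). With 1 library left out, the adjusted p ran from 0.0442 to 0.170.

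Proteins of the head of the small subunit showed 0 calls among 13 genes in edgeR, with 4 at an unadjusted p under 0.05 and a median log2 fold change of -0.19. For the same 13 genes, limma-voom made 0 calls and DESeq2 called 4 lower, where DESeq2 called 3582 of all genes in either direction. *Rps19*, which is mutated in the inherited anaemia of Diamond and Blackfan, was at 107, 98.3 and 121 CPM in saline retina and at 86.5, 65.1 and 69.8 CPM in microbead retina (log2 fold change -0.56, SE 0.18, adjusted p = 0.0678 from edgeR). Its groups did not overlap, and DESeq2 called it lower. *Rps15*, among the genes with the highest level per length, was at 277, 242 and 334 CPM against 421, 233 and 304 CPM (log2 fold change 0.17, SE 0.24, adjusted p = 0.668 from edgeR), and its groups overlapped. The sign of this small value turned without microbead replicate 1, to -0.09.

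Small-subunit genes with other known roles did not pass the threshold. *Rps6*, whose protein is the classic target of the S6 kinases downstream of mTORC1, was at 130, 121 and 154 CPM in saline retina and at 192, 129 and 131 CPM in microbead retina (log2 fold change 0.16, SE 0.20, adjusted p = 0.638 from edgeR). *Rpsa*, which also encodes the laminin receptor, was at 346, 332 and 412 CPM against 511, 332 and 374 CPM (log2 fold change 0.16, SE 0.21, adjusted p = 0.636 from edgeR). In both genes microbead replicate 1 was the highest of all 6 libraries, and without it their log2 fold changes were -0.06 and -0.05. *Rps24* was at 245, 216 and 274 CPM against 489, 323 and 294 CPM without overlap (log2 fold change 0.59, SE 0.22, adjusted p = 0.106 from edgeR).

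Among genes of the large subunit, 1 of 46 rose (2.17%, beside 6.46% of all genes) and 5 fell (10.9%, beside 6.31%). Their median log2 fold change was -0.15. The gene that rose was *Rpl23a*, whose protein sits at the exit of the peptide tunnel and is a docking point for the signal recognition particle. It was at 42.2, 41.2 and 52.2 CPM in saline retina (mean 45.2 ± 6.10, SD, n = 3) and at 242, 121 and 128 CPM in microbead retina (mean 164 ± 68.3, SD, n = 3). The lowest microbead value was far above the highest saline value. Its log2 fold change of 1.86 (SE 0.28, adjusted p = 0.0106 from edgeR) was the largest rise among the 83 genes. It ranged from 1.45 without microbead replicate 1 to 2.05 without microbead replicate 2, and the adjusted p was 0.0599 without microbead replicate 3. *Rpl23a* lies on the minus strand of chromosome 11 from 78180932 to 78183584, holds 3 snoRNA genes, shares 45.6% of its 100-base stretches with transcripts of other loci, and has 55.4% of its mRNA overlapped by a gene on the opposite strand. The libraries were made with a stranded kit, but since strand-specific counting is not stated in the sources used here, reads of that neighbour cannot be told apart from its own. Adding the counts of annotated pseudogenes that share a 100-base stretch changed its log2 fold change to 1.81 and that of *Rps26* to 1.35.

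The 8 genes of the tunnel exit did not move as a block, with a median log2 fold change of 0.02. *Rpl39*, whose small protein lines the tunnel, was at 69.1, 58.7 and 80.8 CPM in saline retina and at 42.4, 31.4 and 26.9 CPM in microbead retina. All microbead values were below all saline values. Its log2 fold change was -1.05 (SE 0.22, adjusted p = 0.0197 from edgeR), opposite to that of *Rpl23a*. *Rpl17* was at 209, 178 and 238 CPM against 373, 297 and 258 CPM without overlap (log2 fold change 0.57, SE 0.20, adjusted p = 0.0835 from edgeR), and DESeq2 called it higher. *Rpl35* was at 63.7, 55.4 and 74.1 CPM against 133, 87.4 and 72.0 CPM (log2 fold change 0.60, SE 0.24, adjusted p = 0.123 from edgeR), and its groups overlapped.

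*Rpl13*, a structural protein of the large subunit, had the largest fall among the protein-coding genes. It was at 206, 202 and 250 CPM in saline retina (mean 219 ± 26.3, SD, n = 3) and at 122, 72.3 and 97.1 CPM in microbead retina (mean 97.1 ± 24.8, SD, n = 3). The groups were well apart, and the log2 fold change was -1.17 (SE 0.22, adjusted p = 0.0159 from edgeR). *Rpl27* was at 83.2, 73.1 and 94.4 CPM against 51.8, 39.6 and 38.6 CPM (log2 fold change -0.95, SE 0.19, adjusted p = 0.0181 from edgeR). *Rpl3*, whose protein reaches towards the peptidyl transferase centre, was at 405, 417 and 494 CPM against 330, 229 and 257 CPM (log2 fold change -0.69, SE 0.19, adjusted p = 0.0467 from edgeR). All 3 genes were below saline retina in every microbead library. Without microbead replicate 3 their adjusted p-values were 0.0829, 0.0929 and 0.158, in the same order.

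**Figure D3:**
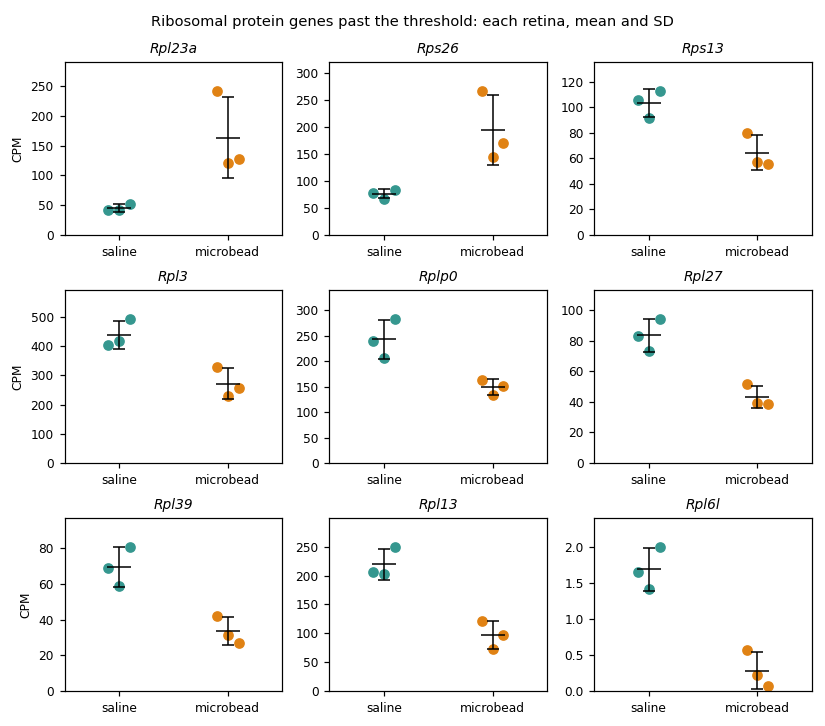
CPM of 9 of the 11 ribosomal protein genes with an adjusted p-value under 0.05 in each of the 6 libraries, with the group mean and SD (n = 3); every axis starts at 0. The groups do not overlap in any panel, and microbead replicate 1, the leftmost point of its group, is the highest microbead library in each.

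The stalk of the large subunit, which recruits elongation factors, is formed by *Rplp0*, *Rplp1* and *Rplp2* on a base with *Rpl12*. Of these 4 genes 1 fell, where 6.31% of all genes fell. *Rplp0*, the anchor of the stalk, was at 239, 206 and 283 CPM in saline retina and at 164, 133 and 152 CPM in microbead retina (log2 fold change -0.70, SE 0.18, adjusted p = 0.0384 from edgeR). The groups did not overlap, but the call was lost when any 1 library was left out, with adjusted p-values from 0.0517 to 0.125. *Rplp2* was at 140, 126 and 146 CPM against 114, 75.5 and 115 CPM, also without overlap (log2 fold change -0.43, adjusted p = 0.169 from edgeR). *Rplp1*, the other tail protein, was at 334, 300 and 394 CPM against 593, 262 and 382 CPM, with overlap (log2 fold change 0.27, adjusted p = 0.545 from edgeR, and -0.09 without microbead replicate 1). *Rpl12* had a log2 fold change of -0.22 (adjusted p = 0.450 from edgeR) and overlapped too.

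*Rpl5* and *Rpl11* encode the proteins that bind 5S rRNA and, when free of the ribosome, hold back Mdm2 and so raise p53. *Rpl11* was at 182, 168 and 208 CPM in saline retina and at 363, 242 and 248 CPM in microbead retina, without overlap (log2 fold change 0.62, SE 0.20, adjusted p = 0.0748 from edgeR). *Rpl5* was at 176, 163 and 210 CPM against 181, 113 and 106 CPM, with overlap (log2 fold change -0.45, SE 0.23, adjusted p = 0.210 from edgeR). The fold changes had opposite signs, and neither passed the threshold in edgeR or limma-voom. DESeq2 called *Rpl11* higher.

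Other large-subunit genes of interest did not pass the threshold in edgeR either. DESeq2 called *Rpl9* and *Rpl10* lower, and limma-voom called *Rpl9* lower. *Rpl9*, high per unit of length, was at 355, 323 and 430 CPM against 281, 197 and 205 CPM without overlap, just outside the threshold (log2 fold change -0.70, SE 0.20, adjusted p = 0.0509 from edgeR). *Rpl10*, which joins the subunit last and readies it for translation, was at 112, 108 and 121 CPM against 96.2, 63.4 and 62.0 CPM without overlap (log2 fold change -0.62, SE 0.20, adjusted p = 0.0722 from edgeR). *Rpl38*, whose loss gives the short tail of the Ts mouse, was at 71.2, 68.2 and 79.3 CPM against 68.0, 36.0 and 32.9 CPM (log2 fold change -0.67, SE 0.27, adjusted p = 0.122 from edgeR). In these 3 genes the microbead values were all below saline retina, with replicate 1 nearest. *Rpl41*, the smallest ribosomal protein, was at 175, 148 and 199 CPM against 215, 139 and 141 CPM with overlap (log2 fold change -0.08, adjusted p = 0.844 from edgeR).

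Levels of *Rps10*, *Rpl24* and *Rpl13a* are uncertain because another gene on the same strand covers much of their mRNA. For *Rps10*, 91.6% of the mRNA lies in exons of *RPS10-NUDT3*, and its level was 106 to 142 CPM in saline retina and 106 to 153 CPM in microbead retina (log2 fold change -0.03, adjusted p = 0.949 from edgeR). For *Rpl24*, 71.5% of the mRNA lies in exons of *Gm28037*, and its level was 1.37 to 2.39 CPM in saline retina and 1.23 to 2.68 CPM in microbead retina. For *Rpl13a*, the overlapped share was 59.3%, and its level was 15.8 to 19.9 CPM in saline retina and 23.9 to 30.7 CPM in microbead retina (log2 fold change 0.56, adjusted p = 0.0792 from edgeR). DESeq2 called *Rpl13a* higher. On the opposite strand, other genes overlap 68.3% of the mRNA of *Rpl35*, 46.6% of that of *Rpl5* and 28.8% of that of *Rpl22l1*. As for *Rpl23a*, reads of such neighbours cannot be told apart from those of these genes, since strand-specific counting is not stated.

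Per kilobase of mRNA, the highest levels in saline retina were those of *Rplp1* (686 ± 95.0 CPM per kilobase, SD, n = 3), *Rps15* (569 ± 93.7) and *Rpl9* (543 ± 80.9), whose SDs overlap. The lowest were those of the annotated pseudogenes *Rps3a3* (2.15 ± 0.501), *Rpl6l* (1.93 ± 0.339) and *Rps3a2* (0.878 ± 0.117). *Rps20* ranked low on this scale with an annotated mRNA of 3706 bases, against a median of 729 bases over the 79 protein-coding members.

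The 7 copies and paralogs were all below 0 in fold change, and 1 of them passed the test. *Rpl6l*, annotated as a processed pseudogene of 871 bases on chromosome 10 from 111125851 to 111126721, shared 61.9% of its 100-base stretches with transcripts of other loci. Its counts were 62, 68 and 70 in saline retina and 11, 3 and 1 in microbead retina, or 1.41 to 2.00 CPM against 0.065 to 0.566 CPM. The log2 fold change was -2.50 (SE 0.66, adjusted p = 0.0392 from edgeR), and the adjusted p was 0.121 without microbead replicate 3. The saline libraries alone gave *Rpl6l* the counts that the rule for members asks, so its call as lower is tied to that rule. *Rpl6l* was not called once the counts of annotated pseudogenes that share a 100-base stretch were added. *Rps3a3*, a processed pseudogene as well, had 54, 74 and 76 counts against 12, 10 and 10 counts (log2 fold change -1.37, SE 0.44, adjusted p = 0.0706 from edgeR). Reads of such copies can come from the parent gene, and how reads with several matches were counted is not stated in the sources used here.

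Among the 4 paralogs set beside a main gene, edgeR and limma-voom made 0 calls (1 at an unadjusted p under 0.05 in each), and DESeq2 called *Rpl22l1* lower. *Rpl22l1*, the paralog of *Rpl22*, was at 23.8, 19.9 and 25.8 CPM in saline retina and at 18.5, 7.65 and 7.02 CPM in microbead retina (log2 fold change -1.06, SE 0.35, adjusted p = 0.0765 from edgeR). *Rpl22* itself was at 147, 119 and 141 CPM against 127, 82.2 and 89.3 CPM (log2 fold change -0.44, adjusted p = 0.171 from edgeR). *Rpl22l1* was 16.2, 16.8 and 18.3% of *Rpl22* in saline retina and 14.6, 9.31 and 7.86% in microbead retina, without overlap. The mean log2 ratio of the pair differed by -0.74 in an exact permutation test (p = 0.1, two-sided, the smallest p that 3 against 3 libraries allow, and 0.4 adjusted over the 4 pairs).

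The other 3 pairs overlapped between the groups. The log2 ratio of *Rpl7l1* to *Rpl7* differed by -0.11 (exact permutation p = 0.6), that of *Rps27l*, which p53 induces, to *Rps27* by -0.16 (exact permutation p = 0.6), and that of *Rps4l*, annotated as a transcribed processed pseudogene, to *Rps4x* by 0.20 (exact permutation p = 0.7). *Rpl7l1* was at 42.3 to 52.0 CPM in saline retina and 31.3 to 42.4 CPM in microbead retina, *Rps27l* at 8.36 to 12.6 against 5.13 to 12.5 CPM, and *Rps4l* at 33.6 to 57.2 against 27.1 to 42.7 CPM. The main genes *Rpl7*, *Rps27* and *Rps4x* had log2 fold changes of -0.27, -0.32 and -0.50 (adjusted p = 0.441, 0.361 and 0.116 from edgeR).

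The make-up of the ribosomal protein pool does not depend on the scaling of the libraries, and the small subunit took a slightly lower share of it in every microbead library. The 40S genes were 41.1, 40.6 and 41.2% of the summed CPM of the 83 genes in saline retina and 40.1, 39.7 and 39.1% in microbead retina. The 60S genes were 57.8, 58.5 and 57.9% against 59.2, 59.6 and 60.1%. The groups did not overlap in either share, and 3 against 3 libraries cannot give an exact permutation p below 0.1. *Rpl23a*, counted in the 60S share, was 0.316, 0.339 and 0.334% of the pool in saline retina and 1.48, 1.16 and 1.16% in microbead retina. *Rps26*, counted in the 40S share, was 0.589, 0.551 and 0.534% against 1.64, 1.40 and 1.55%. The shares of the subunits without these genes were not computed, so how far the shift rests on *Rpl23a* was not tested.

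With the summed members as library size, all genes tested had a median log2 fold change of 0.13, and edgeR called 178 of them, or 1.01% (0.689% higher and 0.316% lower). *Rpl23a* (log2 fold change 1.94, adjusted p = 0.0184 from edgeR) and *Rps26* (1.45, adjusted p = 0.0322 from edgeR) were again higher. On this scale 0 of the 83 genes were lower in edgeR, with 35 at an unadjusted p under 0.05 in either direction. The scale sets the summed members equal in all libraries, so a fall shared by the members cannot show on it. *Rpl13* kept a log2 fold change of -1.05 there, with an adjusted p of 0.0509 from edgeR.

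Length, base composition and copy content of the genes were only weakly related to their fold change. Over the 79 protein-coding members, Spearman's rho of the log2 fold change was 0.06 with mRNA length, -0.07 with GC content, 0.11 with the share of 100-base stretches found at other loci and 0.23 with the mean level, as a description across genes that share the same 6 libraries. Introns of 30 members hold small nucleolar RNA genes, which guide the modification of rRNA. Of these 30 host genes, 1 rose (3.33%) and 6 fell (20%), with a median log2 fold change of -0.17. Of the 49 protein-coding members without such a gene, 1 rose (2.04%) and 2 fell (4.08%), with a median of -0.23. Of all genes, 6.46% rose and 6.31% fell. A difference between host genes and the others was not tested.

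The TOP pyrimidines lie at the transcription start, so the sequence around the start is shown for the 6 members past the threshold that had a promoter entry. The windows are from RefSeq (GRCm38.p6), run from 30 bases before the annotated start to 30 bases from it, and are written 5′ to 3′ on the strand of the gene, with CTTTC or CTTCC in capitals. *Rps26* rose and the other 5 genes fell.
Rps26, chr10:128626477-128626536, minus strand: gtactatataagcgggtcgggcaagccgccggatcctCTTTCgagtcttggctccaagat
Rpl13, chr8:123102320-123102379, plus strand: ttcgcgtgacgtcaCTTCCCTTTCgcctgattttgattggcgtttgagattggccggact
Rps13, chr7:116334161-116334220, minus strand: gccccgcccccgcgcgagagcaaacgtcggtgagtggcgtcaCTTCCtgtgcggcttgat
Rpl39, chrX:37085193-37085252, minus strand: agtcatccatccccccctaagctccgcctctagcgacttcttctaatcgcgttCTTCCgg
Rplp0, chr5:115559437-115559496, plus strand: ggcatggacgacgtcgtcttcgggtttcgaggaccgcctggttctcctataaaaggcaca
Rpl27, chr11:101442215-101442274, plus strand: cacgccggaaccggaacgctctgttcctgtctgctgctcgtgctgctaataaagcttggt

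Of these 6 windows, 4 held CTTTC or CTTCC, at differing distances from the annotated start. Those of *Rplp0* and *Rpl27* held neither CTTTC nor CTTCC. In *Rpl13* the match lay before the annotated start. In *Rpl39* the match was part of CTTCCGG, which is CCGGAAG read on the other strand. Whether a match belongs to a TOP sequence was not tested. The windows rest on the annotated start, and a run beyond them would not be seen. Across the 71 promoter entries found for 60 of the 79 protein-coding members, CTTTC or CTTCC (overlaps counted once) was on the gene's strand of the window in 54.9%, against 19.1% of all 32851 promoters. On the other strand the shares were 29.6% and 20.4%. CCGGAAG, the core of ETS-family sites, was on the gene's strand of the whole 300-base promoter in 23.9%, against 4.77% of all promoters, and on the other strand in 14.1% against 4.79%. *Rpl23a* and *Rpl3* had no entry. These letters were chosen after the sequences were seen, and a match is a description of the sequence.

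Ribosomal proteins made as fusions, and others with symbols outside the rule, were counted apart. In the list of ubiquitin-fused and other ribosomal proteins, 1 of 5 fell (20%, beside 6.31% of all genes), with a median log2 fold change of -0.59. *Fau*, which encodes Rps30 as a fusion protein, was at 172, 141 and 184 CPM in saline retina and at 119, 76.8 and 89.1 CPM in microbead retina, without overlap (log2 fold change -0.80, SE 0.21, adjusted p = 0.0362 from edgeR). *Rps27a*, which encodes a ribosomal protein fused to ubiquitin, had a log2 fold change of -0.59 (adjusted p = 0.198 from edgeR).

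Of 92 genes for rRNA processing and subunit assembly, 10 rose (10.9%, beside 6.46% of all genes) and 2 fell (2.17%, beside 6.31% of all genes), with a median log2 fold change of 0.12. The difference from the ribosomal protein genes was not tested. With the summed members as library size, 0 of the 92 were called in edgeR (24 at an unadjusted p under 0.05). *Las1l*, part of the complex that cuts the second internal spacer of pre-rRNA, was at 84.5, 75.4 and 48.4 CPM in saline retina and at 154, 139 and 133 CPM in microbead retina (log2 fold change 1.03, SE 0.22, adjusted p = 0.0221 from edgeR). *Rpf1*, a factor for maturation of the large subunit, was at 35.6, 29.7 and 22.4 CPM against 70.9, 50.9 and 52.4 CPM (log2 fold change 0.99, SE 0.22, adjusted p = 0.0249 from edgeR). The groups did not overlap for either gene. The other 8 that rose were *Rpf2*, *Exosc1*, *Noc3l*, *Nop14*, *Gnl2*, *Noc2l*, *Gnl3* and *Nop56*, and the 2 that fell were *Ddx56* and *Eif6*. Of 15 genes for RNA polymerase I and rRNA transcription, 1 rose (6.67%, beside 6.46% of all genes), *Taf1a* of the promoter selectivity factor (log2 fold change 0.97, SE 0.19, adjusted p = 0.0182 from edgeR). In this list 0 fell in edgeR (4 at an unadjusted p under 0.05, and 0 and 1 lower in limma-voom and DESeq2).

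Of 19 genes for elongation and other TOP mRNAs, 2 fell (10.5%, beside 6.31% of all genes) and 0 rose in edgeR (median log2 fold change -0.39, 7 at an unadjusted p under 0.05, and 0 higher in limma-voom and DESeq2). These were *Eif2s3x*, the X-linked gamma subunit of eIF2 (-1.34, SE 0.22, adjusted p = 0.0135 from edgeR), and *Vim*, an intermediate filament gene that also marks Müller glia (-0.79, SE 0.22, adjusted p = 0.0438 from edgeR). The summed Müller glia markers were 5586 to 9334 CPM in saline retina and 4690 to 5725 CPM in microbead retina. Of these 10 markers, with *Vim* among the 10, 3 fell (30%, beside 6.31% of all genes). Their part in these levels was not tested. The elongation factors *Eef1a1* (-0.22, adjusted p = 0.571 from edgeR) and *Eef2* (-0.67, adjusted p = 0.0582 from edgeR) did not pass the threshold.

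Of 35 initiation factors, which include *Eif2s3x*, 2 fell (5.71%, near the share of all genes) and 0 rose in edgeR (median -0.12, 10 at an unadjusted p under 0.05, and 0 and 1 higher in limma-voom and DESeq2). The other was *Eif1*, which guards start codon choice (log2 fold change -1.08, SE 0.26, adjusted p = 0.0293 from edgeR). Of 22 genes of mTORC1 and TOP control, 1 rose (4.55%) and 2 fell (9.09%), with a median of -0.24. The falls were those of *Rptor*, the scaffold that defines mTORC1 (-0.84, SE 0.24, adjusted p = 0.0456 from edgeR), and *Rps6ka2*, an RSK kinase (-0.76, SE 0.20, adjusted p = 0.0382 from edgeR). The rise was that of *Max*, the partner of Myc. *Mtor* (-0.64, adjusted p = 0.0633 from edgeR) and *Larp1* (-0.31, adjusted p = 0.278 from edgeR) did not pass the threshold. Of 13 chaperones and import receptors of ribosomal proteins, the import receptors *Tnpo1* and *Kpnb1* fell (15.4%, beside 6.31% of all genes). In this list 0 rose in edgeR (4 at an unadjusted p under 0.05, and 0 and 1 higher in limma-voom and DESeq2).

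Mitochondrial ribosomal proteins, encoded in the nucleus for the ribosomes inside mitochondria, were counted as a list of their own. Of 76 tested, 9 rose (11.8%, beside 6.46% of all genes) and 2 fell (2.63%, beside 6.31% of all genes), with a median log2 fold change of 0.13. With the summed members as library size, 2 rose and 0 fell in edgeR (25 at an unadjusted p under 0.05 in either direction). *Mrpl41* was at 29.01, 26.9 and 29.5 CPM in saline retina and at 89.5, 57.0 and 56.5 CPM in microbead retina (log2 fold change 1.25, SE 0.21, adjusted p = 0.0143 from edgeR). *Mrps34* was at 10.3, 10.2 and 11.01 CPM against 3.24, 2.24 and 6.11 CPM (log2 fold change -1.44, SE 0.36, adjusted p = 0.0331 from edgeR). Both were without overlap. These counts, like those of the ribosomal protein genes, went to 0 in edgeR without microbead replicate 3 (22 at an unadjusted p under 0.05) and without saline replicate 2 (19 at an unadjusted p under 0.05). For rRNA processing and subunit assembly the same was seen, with 25 and 16 genes at an unadjusted p under 0.05.

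**Figure D4:**
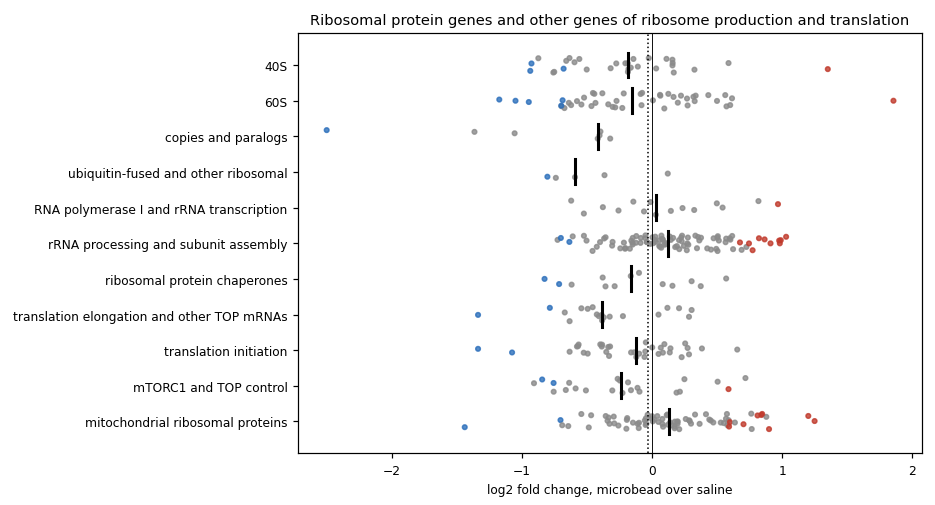
Log2 fold change, microbead over saline retina, of every tested gene in the 40S, 60S and copy groups and in 8 lists of ribosome production and translation (points, spread vertically for legibility). Red and blue mark genes higher and lower at an adjusted p-value under 0.05, thick bars the median of each list and the dotted line the median of all genes at -0.03; the medians of rRNA processing (0.12) and mitochondrial ribosomal proteins (0.13) lie to its right and those of the 40S (-0.19) and 60S (-0.15) genes to its left.

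Pseudogenes of ribosomal protein genes, counted under their own names, were a small addition to the members. The 65 tested pseudogenes with -ps in their symbol had mean levels of 0.221 to 4.30 CPM and summed to between 0.460% and 0.537% of the members' CPM in every library. In edgeR 2 rose (3.08%, beside 6.46% of all genes) and 20 fell (30.8%, beside 6.31%). For 14 of the 20 no microbead library held more than 3 counts. These 14 passed the filter on low counts through saline retina alone, so their falls are tied to that filter. The direction of the calls changed with a stricter filter: among the 22 whose counts were 10 or more in all libraries, 5 rose and 0 fell in edgeR (14 at an unadjusted p under 0.05). That stricter filter removes genes that fell to few counts. *Rps26-ps1* was at 0.611, 0.290 and 0.371 CPM in saline retina and at 1.80, 1.23 and 0.974 CPM in microbead retina, without overlap (log2 fold change 1.66, SE 0.53, adjusted p = 0.0681 from edgeR). *Rpl23a-ps3* was at 0.372, 0.270 and 0.171 CPM against 0.669, 0.578 and 0.195 CPM, with overlap (log2 fold change 0.82, SE 0.65, adjusted p = 0.424 from edgeR). Annotated pseudogenes that share a 100-base stretch with a member summed to 1.36 to 1.502% of the members' level in saline retina and 1.03 to 1.16% in microbead retina.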

How the data were processed

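RNA-seq libraries came from poly(A) RNA of retina, and groups were set from the treatment in the labels. The authors aligned reads with STAR 2.5.3a to GRCm38.p5 with GENCODE vM12 annotation and deposited raw counts per gene from featureCounts 1.15.2. The library kit was stranded, per the methods of the study; whether counting used strand, and how reads with several matches were treated, is not given in the sources used here. The deposited table also holds the authors' own DESeq2 comparison: a mean signal of normalized values, a log2 fold change, a linear ratio (fold change), a p-value with its adjusted p-value, and a column of calls. None of these columns was used.

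Genes with low counts were removed by filterByExpr of edgeR (count minimum 10, total minimum 15). After TMM scaling, groups were compared with edgeR 4.0.16 (R 4.3.3), using its two-sided quasi-likelihood test without covariates, with Benjamini-Hochberg adjustment over 17707 genes and a threshold of 0.05. SE is the size of the log2 fold change over the root of F. CPM use the scaled library sizes, per 1000000. At the shallowest and deepest library, 3 counts are 0.217 and 0.0622 CPM, for counting error only. Paralog ratios were compared by exact permutation. Gene models, lengths, overlaps and the share of 100-base stretches at other annotated loci came from GENCODE vM21 (GRCm38), and promoter windows from RefSeq.

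Members and lists were chosen with earlier results of these data known. Named members were the called ones with the largest changes, paralogs with their main genes, the stalk, the 5S rRNA binders, *Rpsa*, *Rps6*, *Rps19*, *Rpl38*, *Rpl41*, the 3 highest and lowest per length, and the 2 largest called changes of each list; others were chosen with their values in view. A few genes enter the counts and medians but are not reported here by name. Alternative settings were RLE, upper-quartile and no scaling, library sizes without mitochondrial genes or without the 100 most abundant genes, no or a stricter filter (10 counts in each of the 6 libraries), limma-voom 3.58.1, DESeq2 1.42.0, a block for the replicate number, a GC content and length offset (alone and with the block), members sharing under 10% of 100-base stretches, an adjusted p under 0.01 and each library left out. Library sizes from the summed members, counts with pseudogenes added and protein-coding members only were chosen after seeing the data. The test was checked on simulated counts. Within a group, the chi-square per degree of freedom between libraries was 20.1 or more, and each was taken as 1 replicate.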

Additional observations from a re-analysis of the deposited data

How the results depend on the processing

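With all libraries, 2 members were higher and 9 lower, 2261 genes were called, 33 of them in the pathway lists, and 20 pseudogenes were lower. Without a filter, 22 members were lower and 3720 genes called. With at least 10 counts in every library, 0 pseudogenes were lower in edgeR (15 in DESeq2 and 18 in limma-voom with the usual filter), fewer being tested. DESeq2 gave 5 members higher and 19 lower, 3582 genes and 61 in the pathway lists. The offset for GC content and length gave 20 members lower and 2626 genes called, and turned *Rps15* to -0.034. Restricted to members sharing under 10% of 100-base stretches, 1 was higher and 2 lower, since fewer genes entered. At an adjusted p under 0.01, 0 members were higher and 0 lower, with 87 genes called, 0 in the pathway lists and 0 pseudogenes lower (33 members at an unadjusted p under 0.05). With library sizes from the summed members, 0 members were lower, 178 genes were called, 2 in the pathway lists, 1 pseudogene was lower, and *Rpl41* turned to 0.048.

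Leaving out 1 library, members higher ran from 0 to 2 and lower from 0 to 17, all genes called from 46 to 2621, pathway genes from 0 to 31, and pseudogenes lower from 0 to 10. The median log2 fold change of members ran from -0.48 to -0.12, below 0 throughout, and the log2 ratio of their summed CPM from -0.36 to 0.01. Small log2 values changed sign. *Rpl41* ran from -0.32 to 0.049, above 0 without saline replicate 3 or microbead replicate 2 or 3. *Rplp1* ran from -0.092 to 0.53, *Rpsa* from -0.048 to 0.30, *Rps6* from -0.058 to 0.27 and *Rps15* from -0.087 to 0.37, each below 0 without microbead replicate 1. The ratio of *Rpl7l1* ran from -0.25 to 0.019 and that of *Rps27l* from -0.32 to 0.0017, above 0 without saline replicate 1, and that of *Rps4l* from -0.063 to 0.41, below 0 without microbead replicate 3. The cause of these changes was not tested.

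Replicate numbers shared by the groups did not mark pairs: same-numbered libraries correlated at -0.035, 0.137 and 0.00997 in their deviations from the group means, and not every library correlated best with its own number. With the replicate block, 4 members were lower, 905 genes were called, 11 in the pathway lists, and 3 pseudogenes were lower. With the block and the offset these were 4, 880, 11 and 5, and *Rpsa* and *Rps15* turned to -0.0061 and -0.046. In both, 2 members were higher.

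RLE, upper-quartile and no scaling, library sizes without mitochondrial or abundant genes and limma-voom left 2 members higher and 7 to 10 lower, with a median below 0. The number of all genes called ran from 1936 to 2266 in these settings.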

Other observations

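The 2 paralogs left out for low counts were near the detection limit. *Rpl39l*, a paralog of *Rpl39* best known from testis, was counted 1, 2 and 24 times in saline retina and 0, 1 and 0 times in microbead retina. *Rpl3l*, a paralog of *Rpl3* best known from muscle, was counted 9, 9 and 1 times in saline retina and 3, 5 and 1 times in microbead retina. *Rps27rt*, a retrogene of *Rps27* whose symbol is outside the rule for members, was at 0.345, 0.622 and 0.599 CPM in saline retina and at 1.29, 0.650 and 1.104 CPM in microbead retina, without overlap.

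Blood and lymphocyte markers stood at low levels in every library. *Hbb-bs* was the highest, at 9.80, 24.1 and 9.04 CPM in saline retina and 24.96, 5.99 and 13.1 CPM in microbead retina.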
